A study of Mus musculus with 8 samples.

Results

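Ppargc1a encodes PGC-1alpha, and its CpG methylation was followed here cytosine by cytosine across 4 treatments, with most weight on a window at the gene's higher-coordinate end. The window was chosen from measured values of these libraries, its level under the combined treatment against that in Vehicle. Its levels in those 2 groups are therefore given as a description, with no test. The members are all CpG cytosines read between the lower end of the gene and 2000 bp beyond its higher end on chromosome 5 (mm10, 51454249 to 52117853), 775 cytosines of 4006353 in the series. Of these, 171 lay in the window (52115353 to 52116853, from 500 bp inside to 1000 bp outside the gene end) and 604 in the rest of the gene. The data come from reduced representation bisulfite sequencing (RRBS) of I1DN leukaemic progenitors, a cell name kept as the labels give it, that were cKit+ and Cd11b- and came from transplanted mice. There were 4 groups of 2 libraries each: Vehicle, AG120 (ivosidenib, which inhibits the mutant enzyme IDH1), AZA (azacitidine, which inhibits DNA methyltransferases) and both drugs together, called the combination. Treatment lasted 5 days. The sources used here do not give doses, mouse strain or whether the 2 libraries of a group came from separate mice, so the spread between them may be technical. The series asks how the combined treatment acts on DNA methylation.

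PGC-1alpha is a transcriptional coactivator that binds nuclear receptors and other transcription factors and drives mitochondrial biogenesis, oxidative metabolism and, in brown fat and liver, heat production and glucose synthesis. The gene is transcribed from more than 1 promoter. It is read from the minus strand, so its higher-coordinate end is the 5′ side of the longest gene model, which joins 13 RefSeq transcripts. CpG-rich gene starts are mostly unmethylated in normal cells, and gene bodies are mostly methylated. RRBS reads short fragments whose ends lie at CCGG, so CpG-poor stretches are seldom read.

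The promoter that RefSeq lists for Ppargc1a is not the window. It starts 548127 bp inside the gene end and is shown because no methylation value in these libraries bears on it. Its 250 bases before the transcription start (RefSeq, GRCm38.p6, the coordinates of mm10, chr5:51567726-51567975, minus strand, written 5′ to 3′) hold 5 CpG, printed in capitals:

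Ppargc1a RefSeq promoter: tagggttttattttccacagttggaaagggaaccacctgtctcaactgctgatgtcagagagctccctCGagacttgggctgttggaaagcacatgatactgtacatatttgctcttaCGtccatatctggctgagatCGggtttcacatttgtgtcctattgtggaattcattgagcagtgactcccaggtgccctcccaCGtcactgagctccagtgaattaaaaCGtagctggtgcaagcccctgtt

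The sequence holds 0 copies of CCGG, a motif that reads the same on either strand, whereas 47.1% of 32851 RefSeq promoter windows of the same length hold at least 1. The median of all these windows is 6 CpG. None of the 5 CpG was read in any library, 0 cytosines were read within 1000 bp of this promoter and the nearest read cytosine lay 4424 bp away. At the lower-coordinate end of the gene, 0 cytosines were read as well. The methylation of Ppargc1a described here is thus that of its distal 5′ end and of its body.

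The window was read as a patchwork that differed from library to library. Its cytosines fell into 4 covered stretches, parted where neighbouring cytosines lay more than 60 bp apart: 5 cytosines from −497 to −489 bp of the gene end (negative is inside the gene), 141 from −178 to 438 bp, 10 from 568 to 618 bp and 15 from 706 to 742 bp. Of its 99 CpG sites, 72 were read on both strands. The libraries held between 2840 calls (Vehicle replicate 2) and 12707 calls (AG120 replicate 1) in the window, and a call is 1 read at 1 cytosine. Cytosines with at least 10 reads numbered 65 and 60 of 171 in the Vehicle libraries, 58 and 53 with AG120, 113 and 118 with AZA, and 35 and 49 with the combination. At that depth the AZA libraries read the most cytosines and the combination libraries the fewest, while with any read AG120 replicate 2 had the fewest, 72.

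**Figure D1:**
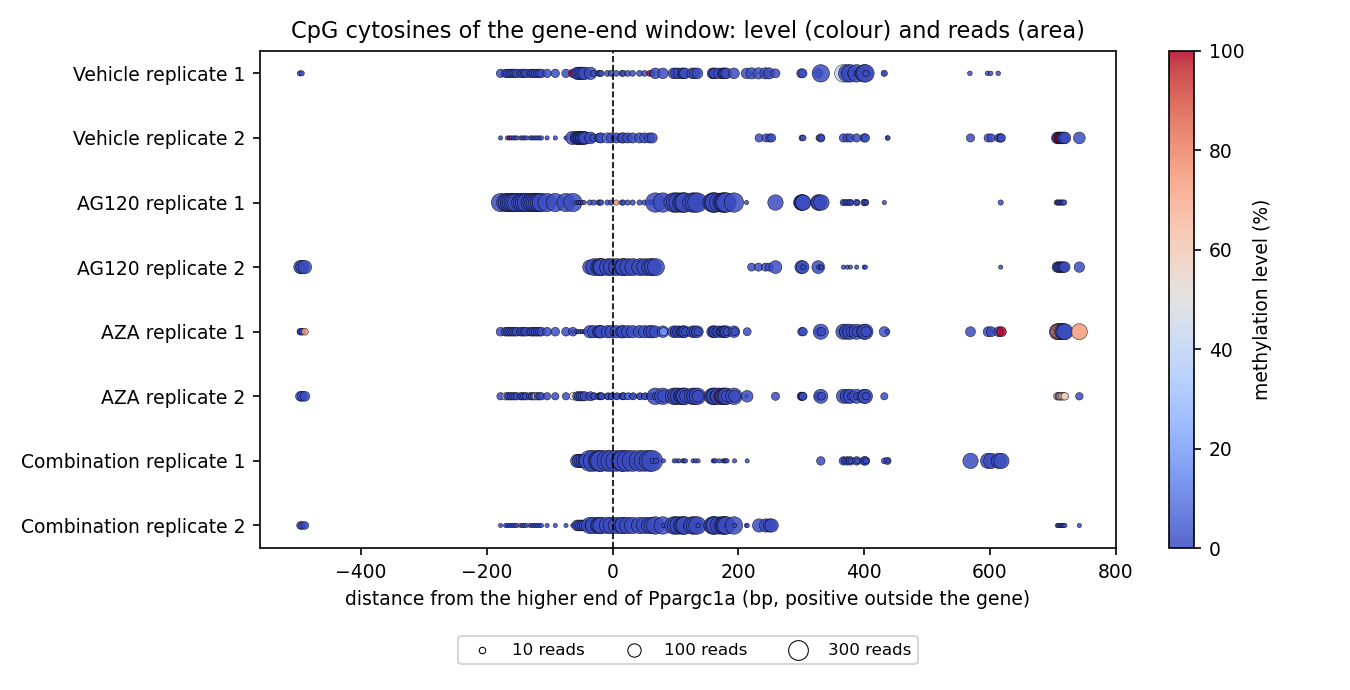
Each point is a CpG cytosine of the Ppargc1a window in 1 library, placed by its distance from the higher gene end (bp, x axis), coloured by its methylation level (%) and sized by its reads. The point sizes shift along the window from library to library, and levels above 50% sit on few cytosines, most of them in the Vehicle and AZA libraries.

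Reads came in blocks of cytosines with nearly the same depth. A block of 23 cytosines ran from position 52115675 to 52115790. Only the last had a strand assigned (minus), since a strand was given only where the partner cytosine was read. The block had a median of 245 reads in AG120 replicate 1, 25 in Vehicle replicate 1 and 1 in Vehicle replicate 2. The median was 1 in the combination's replicate 2, and 0 in AG120 replicate 2 and the combination's replicate 1. The 16 plus-strand cytosines from 52115817 to 52115916 had 352 and 180 reads in the combination libraries and 7 and 45 in the Vehicle libraries. Blocks were formed from cytosines within 60 bp whose reads over the 8 libraries differed by at most 15%. A library deep in one block was therefore often empty in the next.

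No cytosine of the window reached 10 reads in all 8 libraries, or in 7. The highest number was 6 libraries, for 7 cytosines, and 69 cytosines reached 10 reads in 1 or 2 libraries. Any read at all in every library was seen at 16 cytosines. Such sparseness was common: 78.7% of 13042 gene-end windows, and 76.8% of the 5829 windows with at least 100 cytosines, had 0 cytosines with 10 reads in all 8 libraries. The 4 pairs of libraries of the same group shared between 4 and 92 cytosines with at least 10 reads in both, and the 24 pairs from different groups between 7 and 60.

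**Figure D2:**
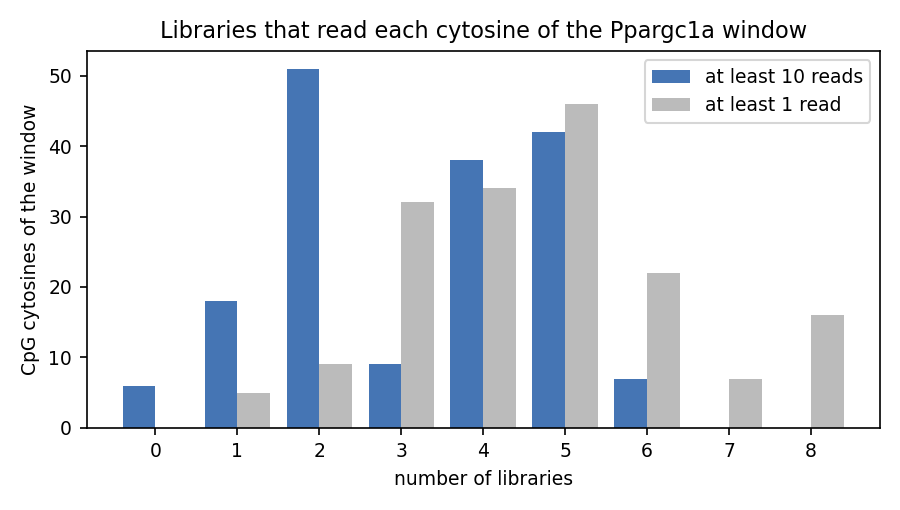
Bars give the number of CpG cytosines of the window (y axis) that reached at least 10 reads (blue) or at least 1 read (grey) in a given number of libraries (x axis). The blue bars end at 6 libraries, with 7 cytosines, while 16 cytosines had a read in all 8.

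Summed over the window, 123 of 4271 calls were methylated in Vehicle replicate 1 (2.88%) and 146 of 2840 in Vehicle replicate 2 (5.14%). With AG120 they were 15 of 12707 (0.118%) and 3 of 6379 (0.0470%). With AZA they were 559 of 6747 (8.29%) and 274 of 7331 (3.74%). In the combination they were 0 of 7294 and 0 of 7988, which allow up to 0.0411% and 0.0376%. The 2 AG120 and the 2 combination libraries lay below all Vehicle and AZA libraries, and the Vehicle and AZA libraries overlapped. How many of all gene-end windows held this order was not counted, so it is not given as particular to Ppargc1a. Group means were 4.01% ± 1.60 (SD, n = 2) in Vehicle, 0.0825% ± 0.0502 (SD, n = 2) with AG120, 6.01% ± 3.22 (SD, n = 2) with AZA and 0% in the combination. Intervals and upper limits cover counting error only, since PCR reads are not independent molecules and the sources used here do not say whether reads were deduplicated.

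As background, both combination libraries lay below both Vehicle libraries in 26.1% of the 13042 windows. No methylated read in either combination library was seen in 15% of them. Windows that also had more than 2% in both Vehicle libraries, as Ppargc1a did, made up 1.46%, or 191 windows. Nothing is read from these counts, since the same contrast chose the window.

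In Vehicle, 5 cytosines carried nearly all methylated calls of the window. They were picked after their values were seen, as cytosines with at least 5 methylated calls in a Vehicle library, because the rule set for naming cytosines asked for 10 reads in every library and none qualified. At position 52115790 (−63 bp from the gene end, minus strand) Vehicle replicate 1 had 25 of 25 calls methylated. At 52115912 (59 bp outside) it had 7 of 7, and at 52116220 (367 bp outside) 91 of 215. All 123 methylated calls of this library came from these 3 cytosines. In Vehicle replicate 2, positions 52116564 and 52116566 (711 and 713 bp outside, minus strand) had 69 of 69 each, which together made 138 of its 146 methylated calls. The 2 Vehicle libraries shared 0 of the 5, since replicate 1 had no read at the latter pair and replicate 2 had 0 of 1, 0 of 45 and 0 of 24 methylated at the other 3.

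The combination libraries read few of these cytosines. At 52115790, 52116564 and 52116566, combination replicate 1 had 0 reads and replicate 2 had 1, unmethylated. At 52116220 replicate 1 had 0 of 26 methylated and replicate 2 was not read. Only 52115912 was deep in the combination, with 0 of 352 and 0 of 180, and there Vehicle replicate 1 had 7 reads and Vehicle replicate 2 was also unmethylated. The same cytosines were partly read with AG120: 0 of 245 at 52115790 in replicate 1, 0 of 126 at 52115912 and 0 of 49 at each of 52116564 and 52116566 in replicate 2. The 5 made up 261 of 269 Vehicle methylated calls (97.0%). In windows with at least 100 cytosines, the 5 highest counts of a cytosine in a single Vehicle library held a median of 96.9%. By that measure, 49.0% of those windows were at least as concentrated as Ppargc1a. A cytosine methylated in both Vehicle libraries could fill more than 1 of the 5 places.

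**Figure D3:**
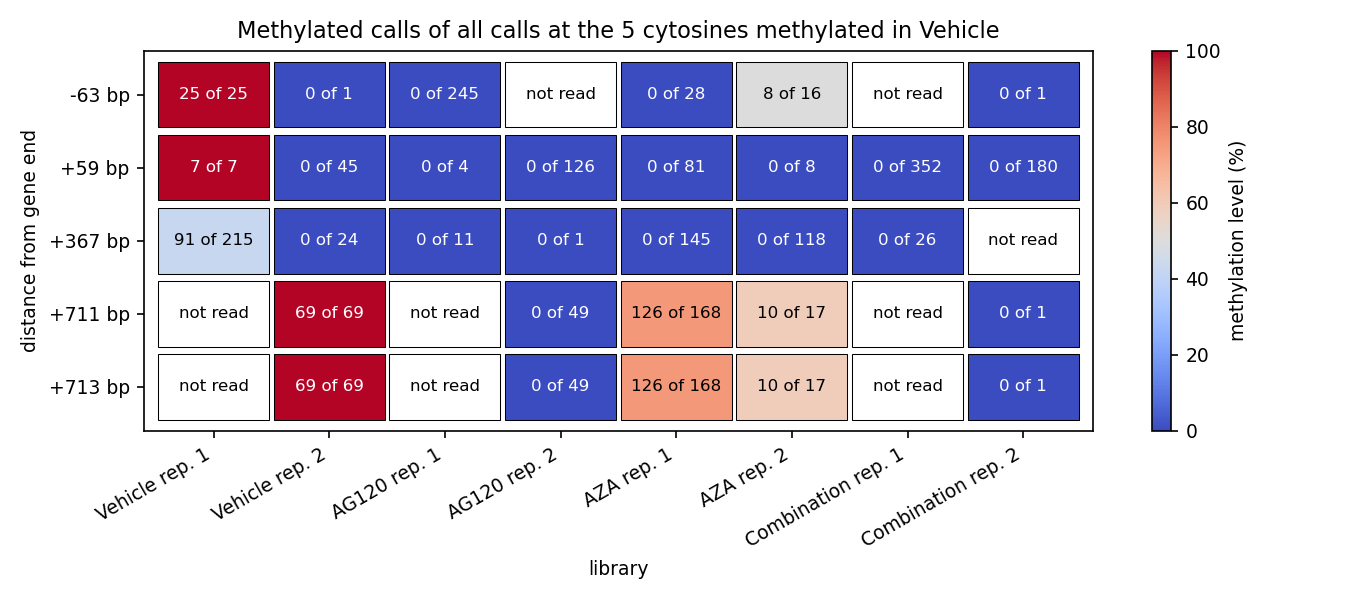
Rows are the 5 cytosines of the window with at least 5 methylated calls in a Vehicle library, by distance from the gene end, and columns the 8 libraries. Cells give methylated calls of all calls, coloured by level. Each row is methylated in only 1 Vehicle library, and in 3 rows the combination has at most 1 read.

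AZA libraries were methylated at more cytosines, some of them the same. In AZA replicate 1, 126 of 168 calls were methylated at each of 52116562, 52116564 and 52116566 and 125 of 167 at 52116595, all in 1 block, while the cytosines of that block at 52116560, 52116568, 52116570 and 52116572 had 0 of 168. In AZA replicate 2, the block showed another pattern: 10 of 17 were methylated at each of 52116560, 52116564, 52116566, 52116568, 52116570 and 52116572, and 0 of 17 at 52116562 and 52116595. Positions 52116564 and 52116566 were thus methylated in 3 libraries, Vehicle replicate 2 and both of AZA. AG120 replicate 2 read the whole block 49 times with 0 methylated. Outside that block, AZA replicate 2 had 176 of 180 at 52116028, where AZA replicate 1 had 0 of 67, and AZA replicate 1 had 42 of 42 at 52116471, where the combination's replicate 1 had 0 of 149. AZA replicate 2 also had 8 of 16 at each of 52115683, 52115731 and 52115790, the last of which was methylated in Vehicle replicate 1 too. AZA replicate 1 had 9 of 12 at 52115364. Counted over the window, 14 cytosines reached a level of 50% on at least 10 reads in some library, of which 11 did so in 1 library, 1 in 2 libraries and 2 in 3.

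In AG120 the few methylated calls were scattered. AG120 replicate 1 had 8 of 245 at 52115698, 3 of 245 at 52115749, 3 of 4 at 52115859 and 1 of 286 at 52116028. AG120 replicate 2 had 1 of 199 at 52115824 and 1 of 1 at each of 52116563 and 52116565. With at least 10 reads, cytosines at 50% or more numbered 0 of 58 and 0 of 53 with AG120 and 0 of 35 and 0 of 49 in the combination. They numbered 1 of 65 and 2 of 60 in Vehicle and 6 of 113 and 10 of 118 with AZA. In the stretch from 706 to 742 bp, Vehicle replicate 2 and both AZA libraries had such levels. There AG120 replicate 1 and both combination libraries had no cytosine with 10 reads. Most of the window was unmethylated in every group: of 551 values of a cytosine in a library on at least 10 reads, 519 (94.2%) were exactly 0, against 87.8% over all gene-end windows.

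Where both strands of a CpG site were read, the few high levels of the window stood on 1 strand. DNA methylation at CpG is usually copied to the new strand by the maintenance methyltransferase DNMT1, so the cytosines of a site tend to share their state. At least 5 reads on each strand were available for 129 combinations of site and library in the window. In 4 of them a strand reached 50%, and in 0 did the other strand as well. Vehicle replicate 2 had 69 of 69 at 52116564 on the minus strand and 0 of 25 at 52116563 on the plus strand of the same site, and likewise 69 of 69 at 52116566 and 0 of 25 at 52116565. Vehicle replicate 1 had 25 of 25 at 52115790 and 0 of 6 at 52115789. AZA replicate 2 had 176 of 180 at 52116028 and 9 of 69 at 52116029. Over all gene-end windows, 25514 of 72087 such sites with a strand at 50% had both strands there. Strands more than 50 points apart made up 3.10% of the site and library combinations here and 6.04% over all gene-end windows. These shares count unmethylated sites too. Levels of 50% or more on at least 10 reads were rarer here, at 3.45% of values against 7.80%, so the 2 shares do not compare strand differences at methylated sites.

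On cytosines read at least 10 times in both libraries of a pair, Vehicle and the combination differed by less than over the whole window in 3 of their 4 pairs. Vehicle replicate 1 and combination replicate 2 shared 26 cytosines, with 0 of 1549 and 0 of 4618 calls methylated. Vehicle replicate 2 had 6 of 1349 methylated on the 34 cytosines shared with combination replicate 1 (0.445%) and 6 of 1158 on the 26 shared with replicate 2 (0.518%), where the combination had 0. Vehicle replicate 1 had 91 of 1994 (4.56%) against 0 of 794 on 13 cytosines shared with combination replicate 1, all 91 from position 52116220. Over the 58 cytosines with at least 10 reads in a Vehicle and in a combination library, Vehicle stood at 1.76% ± 1.90 (SD, n = 2) and the combination at 0%. Of their calls 98 of 3163 and 6 of 1441 were methylated in the Vehicle libraries, and 0 of 7145 and 0 of 7882 in the combination. In 43 cytosines every group had a library with at least 10 reads. Where a library reached that depth there, 91 of 2559 and 6 of 808 calls were methylated in Vehicle, 1 of 5771 and 0 of 2002 with AG120, 0 of 3664 and 177 of 4498 with AZA, and 0 of 5788 and 0 of 7156 in the combination. On these cytosines AZA replicate 1 was as free of methylated calls as the combination.

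AG120 against AZA was the comparison of the window that shares no library with the choice of it. The comparison itself was chosen with earlier results of these data known. Both AG120 libraries lay below both AZA libraries, as they did in 16.3% of the 13042 windows. The edgeR quasi-likelihood test gave Ppargc1a an adjusted p of 1 over 13002 windows. It called 0% of the windows in this comparison, and Ppargc1a was 1 of 468 at an unadjusted p under 0.05. The adjusted p ran from 0.0516 (DESeq2, which called 61 windows) to 1 over the alternatives, and was 0.0776 in the edgeR likelihood ratio test, which called 110. Limma called 0, with 734 under 0.05. The difference did not pass the threshold in any of them. On the same cytosines, AG120 replicate 2 and AZA replicate 1 had 0 of 2700 and 512 of 2689 methylated calls over 27 cytosines, and AG120 replicate 2 and AZA replicate 2 had 1 of 4241 and 61 of 578 over 31. AG120 replicate 1 and AZA replicate 2 had 12 of 12597 and 201 of 5036 over 58. In the remaining pair the order turned: AG120 replicate 1 had 12 of 11993 and AZA replicate 1 had 0 of 3097 over 54 cytosines.

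Next to the window, more than 500 and up to 4000 bp inside the gene end, a CpG-dense shoulder of 298 cytosines was also low in methylation. Its level was 5.01 and 4.17% in the Vehicle libraries, 3.55 and 1.67% with AG120, 4.78 and 3.26% with AZA and 2.93 and 1.64% with the combination, on 6538 to 16684 calls. The combination, without a methylated call in the window, thus had 335 of 11430 and 107 of 6538 in the shoulder. The 4 libraries with AG120 had a mean of 2.45% ± 0.949 (SD, n = 4) against 4.30% ± 0.785 (SD, n = 4) without it, a difference of −1.86 points. The two-sided exact permutation p was 0.0571, where 4 libraries against 4 can reach 0.0286. AG120 replicate 1 lay above AZA replicate 2, and the other 3 libraries with AG120 lay below all libraries without it. For AZA the difference was −0.446 points (exact permutation p = 0.629). With each library's shoulder cytosines of at least 10 reads counted once, an alternative added after the values were seen, the means were 3.05% ± 0.790 with AG120 and 3.72% ± 1.47 without it (SD, n = 4 each), a difference of −0.670 points (exact permutation p = 0.514). There Vehicle replicate 2, at 2.51%, lay below 3 of the 4 libraries with AG120. The boundary at 4000 bp was set after the values were seen.

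**Figure D4:**
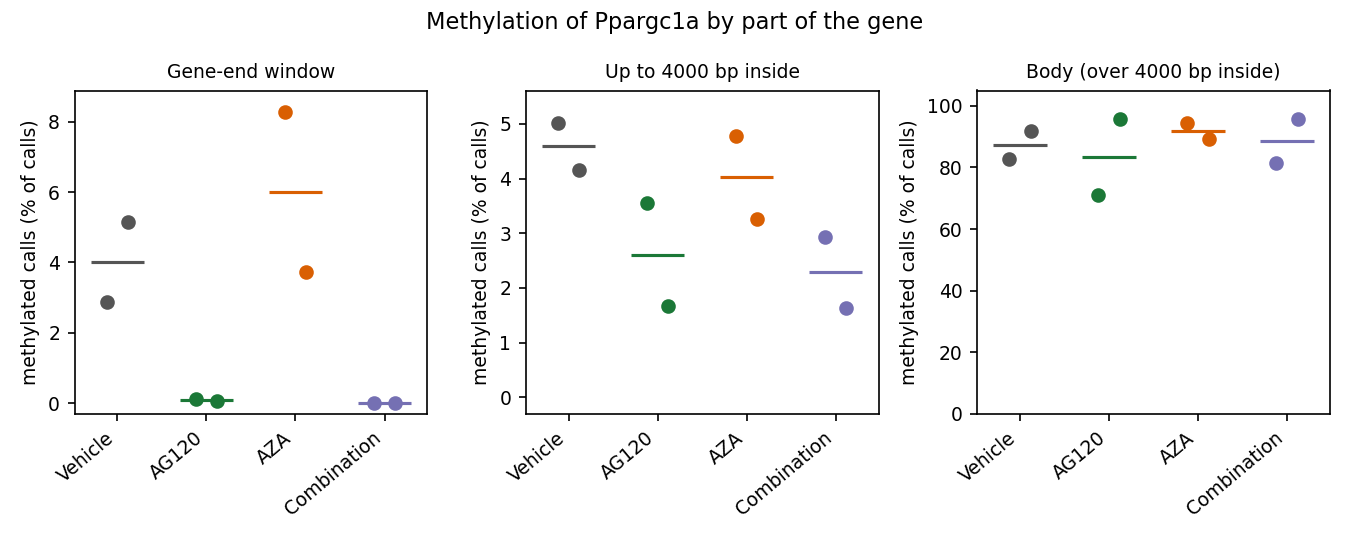
Points are the 2 libraries of each group and horizontal lines their mean, as methylated calls in % of all calls, in the window, in the shoulder up to 4000 bp inside the gene end and in the body beyond; the y axes differ in scale. AG120 and the combination stand near 0 in the window, between 1.64 and 3.55% in the shoulder and between 71.0 and 95.7% in the body.

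In the shoulder, 8 cytosines were read at least 10 times by all 8 libraries, so the libraries could be compared there on the same cytosines. They lay in 2 clusters. Of these, 5 reached 20% in exactly 1 library, 3 in none and 0 in more than 1. At 52113057 AZA replicate 2 had 75 of 124, and all others had 0 or 1 methylated read. At 52113102 AG120 replicate 1 had 141 of 142. At 52113116 AZA replicate 1 had 170 of 678, and combination replicate 2 had 7 of 269. At 52114671 AZA replicate 1 had 173 of 174 and at 52114691 Vehicle replicate 1 had 149 of 406. Each of these levels appeared in 1 library of its group and not in the other.

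Deeper in the gene, methylation was high in every group. More than 4000 bp inside the gene end, 306 cytosines spread over the body up to position 51474153 had 82.8 and 91.7% in Vehicle, 71.0 and 95.7% with AG120, 94.3 and 89.2% with AZA and 81.5 and 95.7% with the combination. The groups overlapped. Of 373 values of a cytosine in a library on at least 10 reads, 82.8% were at 50% or more and 14.7% at exactly 0. Only 2 body cytosines were shared by all libraries, at 52101288 and 52101308. The latter had 25 of 129 in Vehicle replicate 1, 684 of 684 in Vehicle replicate 2, and between 9 of 14 (AZA replicate 1) and 253 of 253 (combination replicate 1) in the drug-treated libraries.

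Over the 10 shared cytosines outside the window, each counted once, libraries with AG120 had a mean of 22.5% ± 4.72 (SD, n = 4) and those without it 22.0% ± 6.21 (SD, n = 4). The difference was 0.438 points (exact permutation p = 0.971, two-sided). With AZA the mean was 23.7% ± 4.30 against 20.8% ± 6.09 (SD, n = 4 each), a difference of 2.85 points (exact permutation p = 0.429). The sign of the AG120 difference turned when single libraries were left out, for example to −1.92 points without AG120 replicate 1.

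Of the gene's 1000 bp tiles outside the window, 5 had at least 3 cytosines and 20 reads in every library. In the shoulder, the tile from 52113001 to 52114000 had 5.37% ± 2.79 in Vehicle, 3.20% ± 3.81 with AG120, 7.05% ± 0.503 with AZA and 2.26% ± 2.90 with the combination (SD, n = 2). The tile from 52114001 to 52115000 had 3.09% ± 1.38, 1.18% ± 1.44, 1.99% ± 2.27 and 1.198% ± 1.69 in the same order. The combination libraries swapped places between them, with 4.30 and 0.206% in the first and 0 and 2.40% in the second. In the body, the tiles starting at 52052001, 52092001 and 52101001 lay between 56.3 and 100% in every library. The last of them had 60% in Vehicle replicate 1 and 91.2% in replicate 2, and 100% in both combination libraries (edgeR adjusted p = 1). The edgeR quasi-likelihood test called 0 of the 5 tiles in any of 5 pairwise comparisons, where it called 0% of 44190 tiles genome-wide in each. Of the 5, the tile starting at 52101001 was the only one at an unadjusted p under 0.05, in the combination against Vehicle. In that comparison 1746 of 44190 tiles were under 0.05. The likelihood ratio test had 4 such values for the 5 tiles and limma 0, and neither called any of them. The share over all tiles is not given for these tests.

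Several gene ends elsewhere followed the library pattern of the Ppargc1a window. Among 10377 windows with a mean level under 20%, the highest Pearson correlations of the level over the 8 libraries were 0.984 for Nisch (a cytosolic protein that binds integrin), 0.984 for Afg3l2 (a subunit of a mitochondrial inner-membrane protease), 0.979 for the lncRNA gene Gm40733, 0.972 for Sox6os and 0.967 for Gm15627, both lncRNA genes. Nisch had 4.12 and 4.48% in Vehicle, 0 and 0% with AG120, 9.49 and 4.66% with AZA, and 0 and 0% in the combination, on 81 to 2117 calls. Sox6os had 11.9 and 12.9% in Vehicle, 3.22 and 1.94% with AG120, 20.5 and 12.8% with AZA, and 2.34 and 0% in the combination. These 5 are the extreme of a ranking over 8 points that share libraries and depth.

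Other genes of the PGC-1 pathway showed no common direction at their gene ends. The list named 86 genes, of which 68 had a measured window: family members, transcription factors that PGC-1alpha binds, its regulators and mitochondrial targets. In the combination against Vehicle 30 were higher and 35 lower, with a median difference of −0.0455 points against −0.191 over all 13042 windows. Both combination libraries lay below both Vehicle libraries in 15 of 68 (22.1%) and above in 6 (8.82%), against 26.1% and 11.7% of all windows. The edgeR quasi-likelihood test called 0 of the 66 list windows it could test, as it called 0% of all windows. It put 1 list window (1.52%) at an unadjusted p under 0.05, against 5.15% of all windows. This was Rxra, a nuclear receptor partner (edgeR adjusted p = 0.940). For AG120 against AZA, 31 were higher and 34 lower, with a median difference of −0.0137 points, against 6437 higher and 6377 lower and a median of 0 over all windows. Of the list 3 of 66 were under 0.05 unadjusted (4.55%), near the 3.599% of all windows, and edgeR called 0 of either. Over both comparisons the likelihood ratio test had 15 list values under 0.05 and limma 4, and neither called a list window. In AG120 against AZA, 1330 and 734 of all 13002 windows were under 0.05 in these tests.

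The family members did not share the pattern. Ppargc1b, which encodes PGC-1beta, had 3.79 and 4.29% in Vehicle, 0.0775 and 1.80% with AG120, 0.381 and 6.48% with AZA, and 0 and 6.83% in the combination. Pprc1, the third coactivator of the family, had 2.72 and 0%, 0 and 0%, 0 and 2.22%, and 3.65 and 0.173% in the same order. In both genes the combination and Vehicle overlapped. Both AG120 libraries of Ppargc1b lay below both Vehicle libraries, but how many of all windows did so was not counted. Nothing is read from it.

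Among the partners, Gabpa, a subunit of the factor NRF2 that acts on nuclear genes for mitochondrial proteins, had 5.29 and 2.37% in Vehicle, 0 and 0.238% with AG120, 8.92 and 0% with AZA, and 0 and 0% in the combination, where replicate 1 held 210 calls. Esrra, the oestrogen-related receptor that PGC-1alpha coactivates, lay higher in the combination, with 3.37 and 0.367% in Vehicle, 23.0 and 11.7% with AG120, 3.99 and 9.78% with AZA, and 16.7 and 12.2% in the combination. Its edgeR adjusted p for the combination against Vehicle was 0.974. Nrf1, a factor for respiratory chain genes, had 0.128 and 1.25% in Vehicle and 0.244 and 6.20% in the combination, and Tfam, the mitochondrial DNA-binding factor, 0.0436 and 2.62% and 0 and 2.33%. Pparg, the receptor on which the coactivator was first found, had 0 methylated reads in every library, and Ppara had 7.38 and 3.44% in Vehicle and 0.878 and 15.7% in the combination.

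The upstream regulators set for naming overlapped between Vehicle and the combination. Other regulators of the list enter only the counts above, which include windows that did not overlap. Sirt1, a deacetylase acting on PGC-1alpha, had 1.099 and 2.32% in Vehicle and 2.81 and 0.0437% in the combination. Prkaa1 and Prkaa2, the catalytic subunits of AMPK, had 0.0703 and 1.49% against 4.98 and 0%, and 19.99 and 26.1% against 19.8 and 30.3%. In AG120 against AZA, the 3 list windows under 0.05 unadjusted were Tfb2m, a mitochondrial transcription factor (0.00857 and 0.0147% against 0.692 and 0.856%), Uqcrc2, a complex III subunit (0 and 0% against 1.15 and 3.36%), and Slc2a4, the glucose transporter GLUT4 (0.0273 and 0.332% against 5.22 and 5.72%), each with an edgeR adjusted p of 1.

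**Figure D5:**
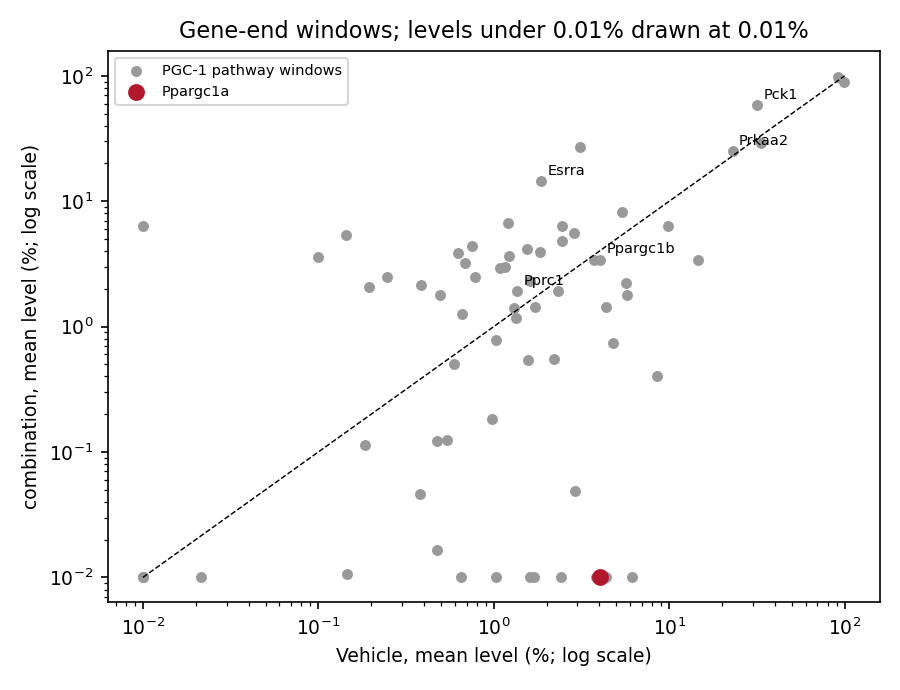
Each grey point is the gene-end window of a PGC-1 pathway gene, by its mean level in Vehicle (x axis) and the combination (y axis), in % on log scales, with levels under 0.01% drawn at 0.01% and the dashed line at equal levels. Ppargc1a (red) lies on the lower edge at 4.01% in Vehicle, while the 68 other windows spread to both sides of the line, 30 higher and 35 lower.

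Across the series, the libraries held 90373925 to 130796962 CpG calls, and each of the 4 with AG120 held fewer than any without it. Over all gene-end windows, the share without a methylated read was 29.4 and 31.4% in the combination libraries, 21.9 and 23.5% in those of AG120, 14.0 and 16.3% in those of AZA, and 9.89 and 11.4% in those of Vehicle. Median calls per window were 1665 and 1680 in the combination and 3359 and 3889 in Vehicle. Between Vehicle, AG120 and the combination these values run in the same order as the level of the Ppargc1a window. AZA had a larger share than Vehicle and a higher mean level in the window. In the window the combination held more calls than Vehicle but fewer cytosines with at least 10 reads, 35 and 49 against 65 and 60. Of its 15282 calls there, 561 fell on the 5 cytosines with at least 5 methylated calls in a Vehicle library. The part of depth and of these shares in the result was not tested.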

How the data were processed

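Methylation was measured by RRBS (a commercial kit with spike-ins, per the labels' protocols) in 8 libraries, 2 per group. The deposited table holds raw counts of methylated and unmethylated calls per CpG cytosine, strands listed apart, per the file headers. The submitters' processing notes name the build mm10 and, without roles, edgeR 3.32, R 4.0.2, SAMtools 1.4.1, Bismark 0.22.3, Trim Galore 0.4.4 and bcl2fastq 2.17.1.14. The sources used here do not state deduplication or the conversion rate. No genome sequence was used, so covered stretches and blocks of like depth stand in for restriction fragments.

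Counts were summed over gene-end windows of protein-coding and lncRNA genes (RefSeq, GRCm38.p6; 1000 bp outside to 500 bp inside the end with more cytosines) and over 1000 bp tiles, each with at least 3 cytosines and 20 reads in every library. All 8 libraries were fitted together with edgeR 4.0.16 (R 4.3.3), with library terms and methylation-by-group terms. The robust quasi-likelihood F-test was used with Benjamini-Hochberg adjustment over all windows or tiles, at 0.05. It was tested on simulated counts that had no spread between libraries of a group beyond counting error. The real libraries had such spread, so the simulation does not show how the test behaves on them. Limma 3.58.1 (log2 ratio of methylated to unmethylated counts, pseudocount 2), the likelihood ratio test and DESeq2 1.42.0 were alternatives. Means of the rest of the gene were compared by exact permutation over 70 assignments (numpy 2.4.6).

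The window, the gene list and the tests were chosen with earlier results of these data known. The rule for named cytosines took the 6 highest with 10 reads in every library and found 0. It also took the 5 tested tiles with the most reads, 11 set pathway genes, the 3 list windows with the smallest p for AG120 against AZA, and the 5 windows most like Ppargc1a. Rxra was named after its value was seen.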

Additional observations from a re-analysis of the deposited data

Results flagged for a closer look

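Over the 10 cytosines outside the window that every library read at least 10 times, AG120 replicate 1 stood at 29.6%, apart from the other 3 libraries with AG120, which lay between 20 and 20.3%. Its gap to the nearest of them passed Dixon's 95% critical value for 4 samples. Chance marks about 1 in 20 groups, and 12 were looked at. Its excess lay at position 52113102, where 141 of its 142 calls were methylated and the other 7 libraries had at most 1 methylated call.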

How the results depend on the processing

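The group means of AG120 and the combination stayed below those of Vehicle and AZA in each setting run, but the sizes changed. Single libraries did not always keep this order. In the covered stretch from −178 to 438 bp, AG120 replicate 1 had 0.118% and AZA replicate 1 had 0.0971%. Summed from 300 bp outside to 300 bp inside the gene end, Vehicle fell to 0.835% and AZA to 1.83%. On the 58 cytosines with at least 10 reads in a Vehicle and a combination library, a choice made after seeing the data, they were 1.76% and 2.41%. AG120 and the combination stayed within 1 SD of their main value in each setting run. In part this could not turn out otherwise. Leaving out 1 of 2 libraries always stays within 1 SD, and any part of a window without methylated calls gives 0%. Single libraries gave 2.88 to 5.14% in Vehicle, 0.0470 to 0.118% with AG120, 3.74 to 8.29% with AZA and 0% in the combination. Means over cytosines with 10 or 20 reads in every library had no cytosine to use and were not run.

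For the rest of the gene, the AG120 difference of 0.438 points turned to −3.64 at 20 reads per cytosine, −13.4 with reads summed, −1.86 in the shoulder (−0.670 with its cytosines counted once) and −3.53 in the body, and ran from −1.92 to 2.74 with each library left out. It turned to −1.71 without Vehicle replicate 1, −0.856 without Vehicle replicate 2 and −1.92 without AG120 replicate 1. The AZA difference of 2.85 points turned to −8.53 with reads summed, −0.599 over tiles and −0.446 in the shoulder (−0.992 with its cytosines counted once), and ran from 1.103 to 5.76 with each library left out. The cause was not tested, and 0 of these values passed 0.05.

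For AG120 against AZA in the window, edgeR called 0 windows, the likelihood ratio test 110 and DESeq2 61, none of them Ppargc1a. Replicate numbers were shared by the groups, but the deviations of same-numbered libraries correlated at −0.0566 to 0.0121 over windows, so the numbers were not taken to pair libraries. With a replicate block the window's adjusted p was 1 and, for the rest of the gene, the exact permutation p was 0.944 for AG120 and 0.5 for AZA. No call on a gene tile or list window appeared in any alternative run. With at most 6 libraries at 10 reads per cytosine, depth allows no comparison of all 8 libraries at 1 cytosine of the window.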
